A study of Mus musculus with 9 samples.

Results

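Itpka, Fam57b, Cyp2b10 and Serpina10 are 4 protein-coding genes with some of the largest rises when SETDB1 was deleted in cultured mouse brown adipocytes with 4-hydroxytamoxifen (4-OHT). They were chosen by name, out of 29386 genes in the deposited tables, as protein-coding genes among those with the largest rises from the vehicle library to the 4-OHT library. Their 4-OHT values are therefore a description of the choice, while the brown adipose tissue (BAT) and siRNA experiments were not part of the ranking, although earlier results of both were known when the genes were chosen. All 4 genes are listed for BAT and 4-OHT, and 3 of them for siRNA, where Serpina10 is in neither table.

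SETDB1 is an enzyme that methylates a lysine of histone H3 and keeps retroelements and many genes silent. Brown adipocytes burn fat to make heat. The data are RNA-seq from 9 libraries in 3 separate experiments. In BAT, 2 libraries from control mice (Setdb1 fl/fl; Adipoq-Cre-) were set against 2 from Setdb1 AKO mice (Setdb1 fl/fl; Adipoq-Cre+), in which the Adipoq promoter drives Cre in adipocytes while the other cells of the tissue keep the gene. In primary brown adipocytes carrying Setdb1 flox/flox and Rosa26Cre-ERT2, which is a Cre that tamoxifen activates, 1 library came from cells given 4-OHT at 1 μM and 1 from cells given the ethanol vehicle (ETOH). In other primary brown adipocytes, whose strain and genotype the labels do not give, 1 library was from cells transfected with a control siRNA (siNC) and 2 from cells given an siRNA against Setdb1 (siSetdb1). All 4 BAT titles carry the prefix TN_CE, a shared condition or name that the labels do not explain. Sex, age, the number of animals, pooling and days of treatment were not given in the sources used here. No 4-OHT library from cells without Cre was analysed here, so the drug and the deletion cannot be told apart, nor can Cre and the deletion in BAT.

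The 4 proteins act in different parts of metabolism and signalling. ITPKA is an inositol trisphosphate kinase, which turns the messenger that opens calcium stores into a more phosphorylated form, and it binds actin and is best known from neurons. FAM57B, named Tlcd3b in RefSeq, is a membrane protein with a TLC domain that has been linked to ceramide synthesis. CYP2B10 is a drug-metabolising cytochrome P450 of the liver and the classic target of the nuclear receptor CAR. SERPINA10 is a protease inhibitor made by the liver that, with protein Z, blocks coagulation factor Xa.

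The genes lie on 3 chromosomes of GRCm38, all coordinates being those of the deposited tables. Itpka (ENSMUSG00000027296) spans chr2:119742337-119751263 on the plus strand and has 1 annotated transcript. Fam57b (ENSMUSG00000058966) spans chr7:126797668-126830219 on the plus strand and has 7 transcripts. Cyp2b10 (ENSMUSG00000030483) spans chr7:25897620-25926624 on the plus strand, on the same chromosome as Fam57b, and has 3 transcripts. Serpina10 (ENSMUSG00000061947) spans chr12:103614786-103631444 on the minus strand and has 2 transcripts.

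The promoters are shown so that the starts of genes chosen for a shared rise can be compared. RefSeq windows of GRCm38.p6, here the 250 bases before a start, existed for 3 of the 4 genes and none for Serpina10. The lines give the Itpka window at chr2:119742087-119742336, the middle of 3 Fam57b windows at chr7:126823053-126823302, and the Cyp2b10 window at chr7:25897408-25897657, whose RefSeq start lies slightly inside the gene as deposited. All read 5′ to 3′ on the plus strand, and capitals mark CG dinucleotides.
Itpka: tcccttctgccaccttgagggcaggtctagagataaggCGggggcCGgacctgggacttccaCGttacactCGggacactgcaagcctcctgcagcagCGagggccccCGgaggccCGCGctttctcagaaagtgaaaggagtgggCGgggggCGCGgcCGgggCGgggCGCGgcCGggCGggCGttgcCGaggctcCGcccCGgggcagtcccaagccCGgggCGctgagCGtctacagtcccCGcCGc
Fam57b: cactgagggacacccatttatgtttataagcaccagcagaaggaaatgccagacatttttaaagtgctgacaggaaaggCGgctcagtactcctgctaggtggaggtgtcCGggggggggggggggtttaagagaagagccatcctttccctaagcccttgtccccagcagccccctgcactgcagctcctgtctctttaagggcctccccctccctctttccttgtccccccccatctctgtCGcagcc
Cyp2b10: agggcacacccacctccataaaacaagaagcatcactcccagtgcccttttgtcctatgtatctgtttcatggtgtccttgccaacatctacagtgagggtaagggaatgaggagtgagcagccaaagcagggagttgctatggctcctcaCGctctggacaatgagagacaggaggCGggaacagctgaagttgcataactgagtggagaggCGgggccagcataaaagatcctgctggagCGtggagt

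The Itpka window holds 26 CG dinucleotides and is 72.8% G or C, which is more CG than in 90.4% of 32851 such windows, whose median is 6. The Cyp2b10 window holds 4 CG and is 52.8% G or C. The Fam57b windows hold 6, 3 and 1 CG, so among these windows only that of Itpka is CG-rich. All Fam57b windows lie inside the gene, the first beginning at chr7:126816635. None lies before the first annotated start at chr7:126797668, whose CG content was not examined. Letter patterns that do not contain one another were searched on both strands. TATAAA is in 12.4% of all windows and in the printed Fam57b window alone among those of the 3 genes. AGGTCA, a nuclear receptor half-site in 14.0% of windows, was in none of the members' windows. Nor were TGACGTCA, found in 1.55% of windows, or CACGTG, found in 6.02%.

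The libraries held 15979479 to 16940622 reads on genes in BAT, 29911734 and 30176359 in ETOH and 4-OHT, and 17593799 to 18468152 in siRNA. Setdb1 itself was lower in each Setdb1-deficient group, by differing amounts. It had 496 and 466 reads in the BAT controls and 152 and 185 in the AKO libraries, a fitted difference of -1.42 log2 with an SE of 0.190 (limma adjusted p = 0.0216). It went from 1070 to 620 reads with 4-OHT, a ratio of 0.597 on the scaled CPM. In siRNA it went from 794 reads in siNC to 366 and 392, a fitted difference of -1.02 log2 with an SE of 0.151 (limma adjusted p = 0.0526), just above the threshold of 0.05. Over the alternatives run, the adjusted p of Setdb1 in siRNA fell on both sides of that threshold. Where in Setdb1 the floxed part lies was not given in the sources used here, so reads outside it do not measure the deletion. Summed markers of brown adipocytes were 16806 to 23667 CPM (library-scaled reads on genes) in BAT. They were 6592 and 8023 in ETOH and 4-OHT, and 13122 to 13289 in siRNA, with all 10 markers read in every library. Some of the 10 mark adipocytes in general, so the sum does not measure brown identity. Fabp4 was the largest in every library, at 4700 and 5944 scaled CPM in ETOH and 4-OHT, against 267 and 295 for Ucp1. The 4-OHT and ETOH cells also held 10767 and 12378 CPM of fibroblast and preadipocyte markers, against 529 to 774 in BAT. Most of the cell sums came from 2 collagen genes, Col1a1 (8381 and 8585 scaled CPM in 4-OHT and ETOH) and Col3a1 (2223 and 3020). Lum, Pi16 and Dpp4 were at 0.0984 to 1.15 scaled CPM in the same libraries, so the sums do not stand for the whole list.

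**Figure D1:**
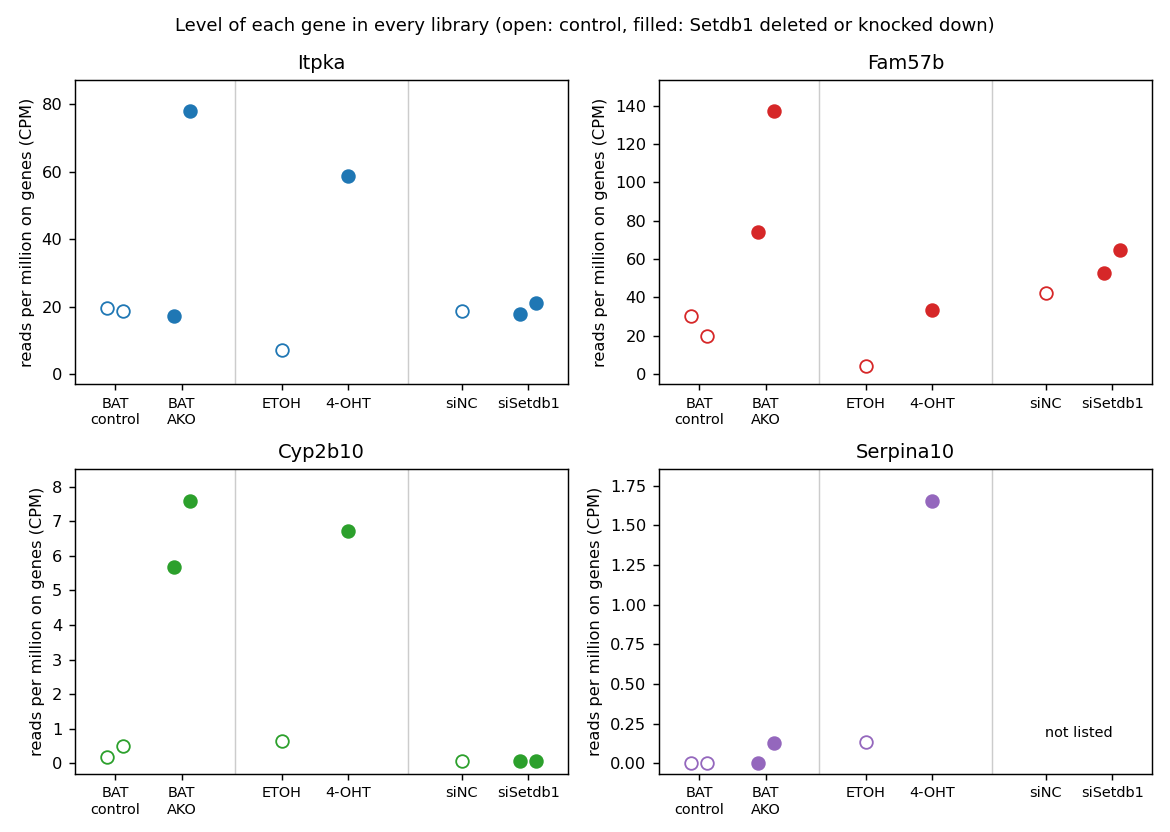
Library-scaled reads on genes (CPM, linear axis from 0) of the 4 genes in each of the 9 libraries, 1 point per library, open for control and filled for Setdb1-deficient libraries; vertical lines separate the 3 experiments, which were scaled by their own totals. Cyp2b10 and Fam57b are higher in both AKO libraries than in both controls, Itpka in 1 of the 2, and Serpina10 is read mainly in the 4-OHT library.

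Cyp2b10 was raised about as much as the other 3 genes in 4-OHT. It had 19 reads in ETOH and 203 in 4-OHT, or 0.623 and 6.86 CPM after TMM scaling, a ratio of 11.01 with a 95% counting interval of 6.87 to 18.7. The interval covers counting error only, since each group is 1 library. On the log2 scale with a prior count of 2, which draws ratios of few reads toward 0, the value was 3.33, the third among 12249 protein-coding genes with at least 50 counts in 1 of the libraries. Of all 13969 genes that pass this count minimum, 1.24% were at least 2-fold higher in 4-OHT.

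In BAT, Cyp2b10 rose as well. The controls had 3 and 8 reads and the AKO libraries 94 and 122, or 2.75, 8.12, 96.7 and 126 normalised counts (the authors' scaled counts). Both AKO libraries were far above both controls, with group means of 5.43 ± 3.79 and 111 ± 20.6 (SD, n = 2 each). The fitted difference was 4.25 log2 with an SE of 0.524 (limma adjusted p = 0.0150), with single-library differences of 4.06 and 4.44, and only 23 of 14466 tested genes had a larger one. It rests on few control reads, and with either control left out the limma adjusted p was 0.0915 or 0.0558. In such fits the lone library is assumed to vary like the pair that remains. Of all tested BAT genes 1.00% were called higher, 0.677% lower and 1.68% in either direction, and both AKO libraries were above both controls in 25.1%. Of 3 members tested in BAT, 2 were called higher; Serpina10 had too few reads to be tested, and since Cyp2b10 passed the filter only through its AKO libraries, the count is no support in itself.

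The siRNA cells gave Cyp2b10 1 read in each of the 3 libraries, of 17593799 to 18468152 reads. That is below the 3 reads that a count of 0 still allows, so no ratio was computed and a change was not detectable at this depth. The control level per length differed between the cell cultures: ETOH was at 0.301 RPKM (CPM per kilobase of transcript) and siNC at 0.0256 RPKM. The AKO libraries and the 4-OHT library stood together at 2.69, 3.60 and 3.19 RPKM, although these come from tissue and from cultured cells that were scaled separately. In BAT, fewer cells of a type and less RNA per cell cannot be told apart for this or any gene below.

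As Cyp2b10 is above all a liver gene, hepatocyte markers were read beside it. Of 14 such markers, 7 to 9 were at 0 or not listed in each BAT library, and their sum was 51.1 and 40.2 CPM in the controls and 66.5 and 30.8 in the AKO libraries. In the cells the sum was 5.38 CPM in ETOH and 3.88 in 4-OHT, and 2.16 to 3.10 in siRNA. In BAT 69.6% to 82.2% of the sum was Cyp2e1, which overlapped between the groups (652 and 535 normalised counts in controls, 922 and 355 in AKO). Serpinc1, the antithrombin gene, was higher in both AKO libraries (19.6 and 21.7 normalised counts against 11.9 and 6.09, limma adjusted p = 0.316). So was Trf (158 and 118 against 110 and 93.3, limma adjusted p = 0.442), as were 25.1% of all tested BAT genes. Apoa1 and Apoa2 overlapped between the groups. Alb had 0 to 2.03 normalised counts in BAT, and Fgb, Fgg, Cps1 and Cyp3a11 were not listed for any library. The part of these markers in the Cyp2b10 values was not tested.

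Part of the Cyp2b10 transcript is shared with its relatives. Of its distinct stretches of 31 bases, 19.4% occur in transcripts of other genes, most of them (13.1% of the total) in Cyp2b13, and how the authors' counting treated such reads was not stated. Cyp2b13, the nearest coding gene on the far side at 134873 bases, had 0 reads in both BAT controls and 4 and 5 in AKO, and 0 and 2 in ETOH and 4-OHT. As much as 40.8% of its own stretches occur elsewhere, so its few reads are uncertain. The nearest coding gene on the other side, Cyp2s1 at 80707 bases, had 5 and 0 reads in controls and 14 and 0 in AKO, with no consistent direction.

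Some other low transcripts around Cyp2b10 followed the same course in BAT. Within 150 kb, a distance chosen after the values were seen, 9 of 18 annotated genes are listed for BAT. Of these, 3 had enough reads to be tested (log2 fold changes 0.12 to 0.31), and limma, edgeR and DESeq2 called none. Nor did they call any of 4 in siRNA, and none of 2 was past 2-fold in 4-OHT. Another 4 of the 9 had no read in either BAT control and at least 1 in both AKO libraries. The same held for 0 of 10 listed genes around Itpka, 1 of 25 around Fam57b and 1 of 4 around Serpina10. Among all 22721 genes listed for BAT, 2.28% did so. However, 19995 and 19609 of those had a read in control 1 and control 2, so most could not do so. The share among genes with as few reads was not computed. Besides Cyp2b13, the 4 such genes around Cyp2b10 were Gm30146, Cyp2b27-ps and BC026762, named after their values were seen. Gm30146, a lincRNA 27737 bases away on the same strand, had 7 and 41 AKO reads, at least 16.1-fold higher than the 3 reads that 0 allows over both controls. Most of these reads are from AKO 2, and AKO 1 alone gives at least 4.63-fold. It had 0 reads in siNC and 4 and 10 in siSetdb1 (log2 fold change 2.91, limma adjusted p = 0.941). BC026762, another lincRNA, had 14 and 5 AKO reads (at least 6.39-fold higher), and the pseudogene Cyp2b27-ps, whose interval contains it, had 11 and 5 (at least 5.38-fold higher). None of these 3 transcripts shares a stretch of 31 bases with Cyp2b10, but 65.3% of those of Cyp2b27-ps occur in Cyp2b26-ps and 24.7% of those of BC026762 in other genes, so their reads are uncertain too.

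Fam57b rose in BAT too, from a higher level. It had 516 and 317 reads in the controls and 1229 and 2202 in AKO, or 473, 322, 1265 and 2272 normalised counts. Both AKO libraries were above both controls, with group means of 397 ± 107 and 1768 ± 712 (SD, n = 2 each). The fitted difference was 2.12 log2 with an SE of 0.303 (limma adjusted p = 0.0253), about 4.34-fold, with AKO 1 at 1.69 and AKO 2 at 2.54 above the control mean. Without AKO 2 (limma adjusted p = 0.0588), control 1 (0.178) or control 2 (0.256), when 1 group is a single library assumed to vary like the other, the direction stayed and the threshold was not reached.

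In the 4-OHT library Fam57b had 1002 reads against 130 in ETOH, or 33.9 and 4.26 TMM-scaled CPM. The ratio was 7.94 (95% counting interval 6.61 to 9.61), and the log2 ratio of 2.97 was the sixth among protein-coding genes. In siRNA it had 783 reads in siNC and 936 and 1135 in siSetdb1, or 773, 949 and 1156 normalised counts. Both knockdown libraries were above siNC, as they were for 34.1% of the 15224 genes tested there. The difference of 0.44 log2, with an SE of 0.146, did not pass (limma adjusted p = 0.924), in an experiment where limma called 0.0328% of genes higher, 0.00657% lower and 0.0394% in either direction.

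The order of Fam57b levels did not follow Setdb1 loss across experiments. Per length, the ETOH library had the least Fam57b at 1.10 RPKM, and the 4-OHT library reached 8.44 RPKM. The siNC control of the other culture already stood at 10.8 RPKM, above the 4-OHT library. Levels of 13.4 and 16.4 RPKM followed in siSetdb1, and 18.8 and 34.9 in AKO, against 7.74 and 5.04 in the BAT controls. The BAT control libraries and the 4-OHT library were neighbours in this order, and these experiments were scaled separately.

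The start of Fam57b overlaps Aldoa on the opposite strand, and the strand setting of the counting was not stated, so reads of the 2 genes might not be told apart where they share exons. The main Aldoa gene (ENSMUSG00000030695), a glycolytic aldolase, shares 25 exonic bases with Fam57b, or 0.635% of the 3935 exonic bases of Fam57b. Its reads went from 73778 to 94863 with 4-OHT (log2 ratio 0.41), and its BAT log2 fold change was 0.30 (limma adjusted p = 0.630). A second gene of that name (ENSMUSG00000114515) lies wholly inside Fam57b with no shared exonic base, and had 25 reads in ETOH and 87 in 4-OHT (log2 ratio 1.76). That gene had 6, 2, 3 and 13 reads in BAT and 56, 18 and 54 in siRNA. The pseudogene Gm44856, also inside Fam57b, had 0 and 2 reads in ETOH and 4-OHT.

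Of 36 annotated genes within 150 kb of Fam57b, limma and edgeR called none of 22 tested in BAT and none of 23 in siRNA (2 and 1 with an unadjusted limma p below 0.05). DESeq2 called 1 of them in BAT, Taok2, as lower. Over all genes, 2564 of 14466 and 770 of 15224 had an unadjusted p below 0.05. Ppp4c, the nearest listed coding gene that does not overlap Fam57b, encodes a phosphatase subunit, and its BAT log2 fold change was 0.12 (limma adjusted p = 0.779). Gdpd3, named after its values were seen, had a BAT value of 2.75 (limma adjusted p = 0.319), but its reads were 10 and 269 in controls and 387 and 305 in AKO, so control 1 stood apart. In ETOH and 4-OHT it had 30 and 16 reads.

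Itpka rose in the 4-OHT library and was uneven in BAT. It had 210 reads in ETOH and 1772 in 4-OHT, or 6.89 and 59.9 TMM-scaled CPM, a ratio of 8.69 with a 95% counting interval of 7.53 to 10.1. The log2 ratio of 3.11 was the fifth among protein-coding genes. As it had the most reads, its interval was the narrowest of the 4.

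In BAT, Itpka had 329 and 298 reads in the controls, 284 in AKO 1 and 1252 in AKO 2. In normalised counts these were 302 and 302 in controls, 292 in AKO 1 and 1292 in AKO 2. One AKO library was at the control level and the other about 4.27-fold above it, so the groups overlapped. The difference of 1.02 log2, with an SE of 0.585, did not pass (limma adjusted p = 0.415). The value is decided by 1 library: it was 2.09 without AKO 1 and -0.048 without AKO 2, each from a single AKO library whose own spread is not measured. Over the alternatives run, the adjusted p of Itpka in BAT fell on both sides of the threshold, so its call depended on the setting. The gap of 2.14 log2 between the AKO libraries was exceeded by 127 of 14466 genes, the median gap being 0.27, whereas the controls differed by 0.0027. Setdb1 was low in both, at 152 and 185 reads, and the library with more Itpka was the one with slightly more Setdb1.

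The AKO libraries also differed in other respects, and the part of these in the Itpka gap was not tested. Brown adipocyte markers summed to 23667 CPM in AKO 1 and 16806 in AKO 2, Schwann cell markers to 166 and 89.6, and fibroblast and preadipocyte markers to 532 and 774. Neuron markers, which matter here because Itpka is best known from neurons, summed to 12.7 and 11.1 CPM, against 11.7 and 11.5 in controls, with 75.7% to 92.9% of the sum from Syp. Some low neuron markers were higher in both AKO libraries than in both controls. So were 25.1% of all tested BAT genes, but these markers had too few reads to be among those tested. The share among genes with as few reads was not computed. Nefm had 7.20 and 8.25 normalised counts against 2.75 and 0, and Gap43 had 4.12 and 3.10 against 0 and 1.01. Nefl and Snap25 had 1.03 to 2.06 in AKO and 0 in controls. Stmn2, Rbfox3, Tubb3 and Syp overlapped between the groups, and Elavl4 had 0 in both AKO libraries against 0 and 2.03 in controls. Serpina3n, an inflammation-responsive serpin, was 41.2 and 759 normalised counts in AKO 1 and AKO 2, and 129 and 235 in the controls.

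In siRNA, Itpka did not pass the test. It had 347 reads in siNC and 313 and 371 in siSetdb1, or 342, 317 and 378 normalised counts, so 1 knockdown library was below the control and the other above. The difference was 0.016 log2 with an SE of 0.178 (limma adjusted p = 0.991). Per length, all 3 siRNA libraries (9.72 to 11.6 RPKM), the BAT controls (10.3 and 10.7) and AKO 1 (9.42) were alike. The ETOH library stood below them at 3.86 RPKM, and the 4-OHT library and AKO 2 above at 32.3 and 42.9 RPKM.

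No neighbour of Itpka was called in BAT or siRNA or past 2-fold in 4-OHT. Rtf1, 6930 bases away, encodes a transcription elongation factor, and had 944 and 887 reads in ETOH and 4-OHT. Ltk, a receptor tyrosine kinase gene that ends 57 bases from the end of Itpka on the opposite strand, had 2 and 0 reads there and at most 6 in any library. Of 15 annotated genes within 150 kb, 8 were measured in 4-OHT and none was past 2-fold, and limma called none of 8 in BAT and none of 9 in siRNA, as did edgeR and DESeq2 (0 and 2 with an unadjusted limma p below 0.05). The BAT value farthest from 0 was -1.11, for Tyro3, a receptor tyrosine kinase gene named after its values were seen (limma adjusted p = 0.330). None of the Itpka stretches of 31 bases occurs in another gene's transcripts.

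**Figure D2:**
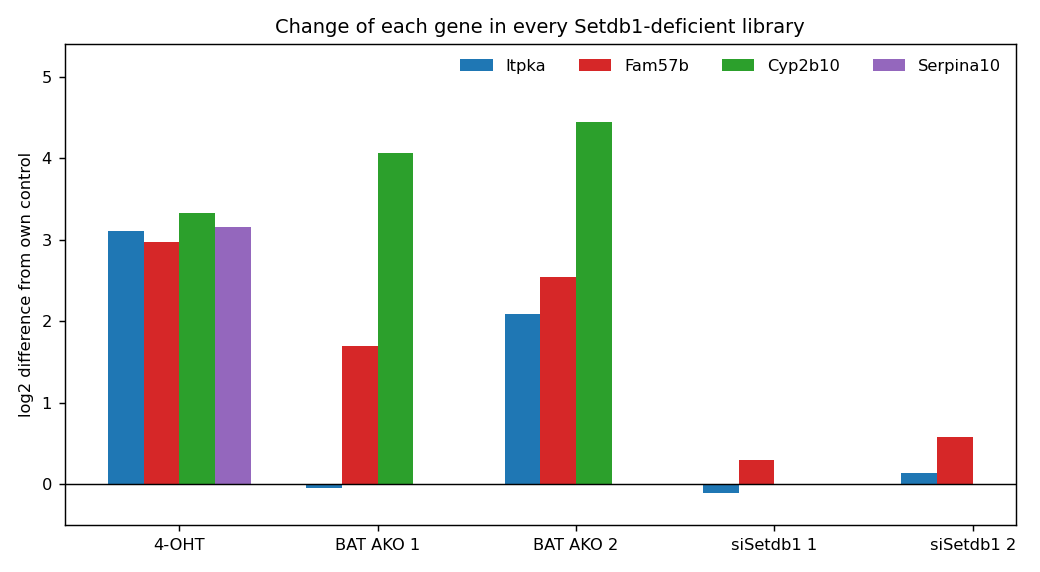
Log2 difference of each gene from its own control in the 5 Setdb1-deficient libraries (4-OHT: log2 ratio with a prior count of 2; BAT and siRNA: log2(normalised count + 1) minus the control mean); bars start at 0, and Serpina10 in BAT and Cyp2b10 and Serpina10 in siRNA are left out for want of reads. All 4 genes stand near 3 in 4-OHT, Cyp2b10 and Fam57b are up in both AKO libraries, Itpka only in AKO 2, and siRNA bars stay between -0.11 and 0.58.

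Serpina10 was the least measured of the 4. It had 4 reads in ETOH and 50 in 4-OHT, exactly at the count minimum, or 0.131 and 1.69 TMM-scaled CPM. The ratio was 12.9, with a wide 95% counting interval of 4.73 to 49.1, and the log2 ratio with a prior count of 2 was 3.15, the fourth among protein-coding genes. In BAT it had no read in both controls and in AKO 1, and 2 in AKO 2, so no test was made. A count of 0 over both controls allows up to 0.0911 CPM and in AKO 1 up to 0.181 CPM. In siRNA it is listed in neither table, and no listed gene had 0 reads in all libraries of its table. A change like that in 4-OHT was therefore seen in no other library.

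Ppp4r4, a phosphatase regulatory subunit gene, ends 955 bases from the end of Serpina10 on the opposite strand and was also higher with 4-OHT. It had 77 reads in ETOH and 210 in 4-OHT (log2 ratio 1.47). In BAT it had 22 and 11 reads in controls and 42 and 45 in AKO, with no overlap, and the log2 fold change of 1.51 did not pass (limma adjusted p = 0.142). In siRNA it had 27, 26 and 35 reads (log2 fold change 0.20, limma adjusted p = 0.969). Serpina6, the nearest coding gene on the other side at 15186 bases, had 2 reads in AKO 1 and none in the other BAT libraries. The genes do not overlap as annotated, and whether transcripts run past their annotated ends was not tested.

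**Figure D3:**
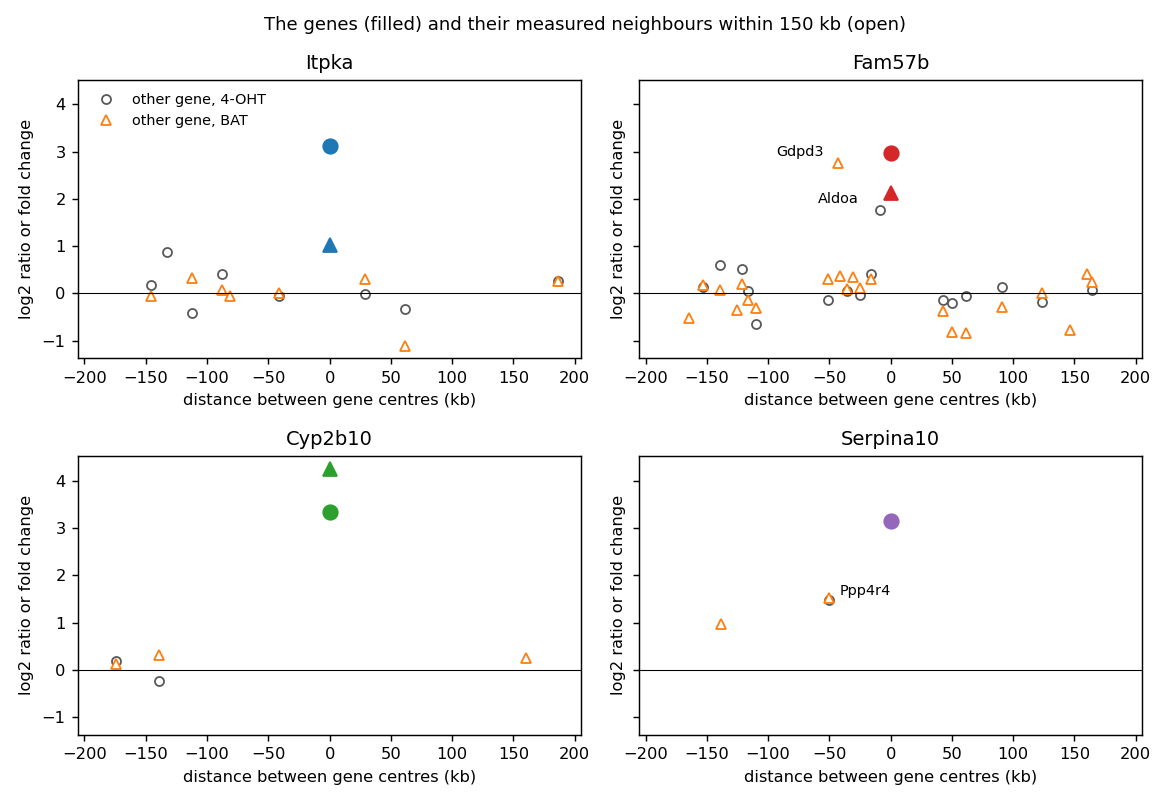
Log2 ratio in 4-OHT (circles) and fitted log2 fold change in BAT (triangles) of the 4 genes (filled, at distance 0) and of the measured genes within 150 kb of them (open), by the distance between gene centres in kb on the plus strand. Most neighbours lie near 0, with Ppp4r4 at 1.47 and 1.51, the second Aldoa gene at 1.76 in 4-OHT, and Gdpd3 at 2.75 in BAT without passing the test.

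The genes just outside the choice had 4-OHT ratios above and below those of the members. Tnfrsf22, another TNF family receptor gene, stood first with 90 reads in ETOH and 2029 in 4-OHT (log2 ratio 4.51). Next above Cyp2b10 was Atf7ip2, with 8 reads in ETOH and 122 in 4-OHT (log2 ratio 3.67). Next below Fam57b was Tnfrsf23, a decoy receptor gene of that family, with 267 and 2016 reads (2.95). Tnfrsf23 was also higher in BAT (log2 fold change 4.01, limma adjusted p = 0.00172).

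Among the 119 other protein-coding genes at least 2-fold higher in 4-OHT, 99 were tested in BAT, where limma called 22 higher and 2 lower. That is 22.2% higher, against 1.00% of all tested genes, and their median log2 fold change was 0.70 against 0.006 for all. In siRNA 105 were tested and limma called 4 higher and 0 lower (3.81% against 0.0328%), with a median of 0.30 against -0.003. Fam57b and Cyp2b10 were thus among the genes raised in both the 4-OHT cells and the tissue, while in siRNA Fam57b was not called and Cyp2b10 could not be tested.

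**Figure D4:**
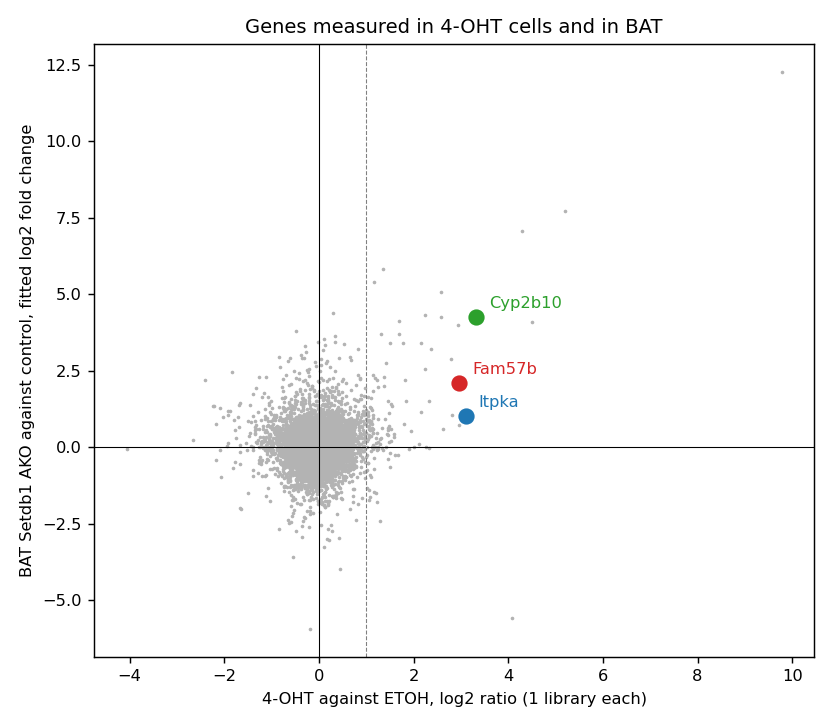
Log2 ratio in 4-OHT (1 library per group, no test) against the fitted log2 fold change in BAT for the 12480 genes measured in both; the dashed line marks a 2-fold ratio. Cyp2b10 lies at 3.33 and 4.25, Fam57b at 2.97 and 2.12 and Itpka at 3.11 and 1.02, while Serpina10 was not measured in BAT.

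The genes with the pattern most like each member were found by the smallest distance between log2 differences in the 5 Setdb1-deficient libraries, over 11352 genes. For Fam57b these were Tubb3 (distance 1.17), Ermp1 (1.17) and Got1l1 (1.65). Itpka was nearest to Tubb3 (1.70), Itih4 (1.88) and Fam57b (1.90), all at larger distances than the first neighbours of Fam57b. Cyp2b10 was nearest to Tnfrsf23 (1.04), Mlf1 (1.49) and Eci2 (1.71), with the reservation that it has 1 read per siRNA library. These distances come from libraries that share controls within an experiment and are a description.

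Tubb3, a neuronal tubulin that stands first for both Itpka and Fam57b, is also a neuron marker. It had 14.3 TMM-scaled CPM in ETOH and 72.5 in 4-OHT (log2 ratio 2.34). Its BAT level was low, at 10.1 and 0 normalised counts in controls and 6.17 and 11.3 in AKO (limma adjusted p = 0.556), so the groups overlapped. The summed neuron markers went from 20.7 to 75.6 CPM with 4-OHT, nearly all of it Tubb3, and 1 of the 10 markers was at 0 in 4-OHT and 2 in ETOH. Macrophage markers summed to 3449 CPM in ETOH and 1918 in 4-OHT, and to 47.9 in siNC and 26.1 and 23.6 in siSetdb1. The part of these differences in the members' values was not tested.

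Few genes of the surrounding pathways passed the tests, and few genes did so at large. Over all tested genes limma called 1.68% in BAT and 0.0394% in siRNA, and in 4-OHT 1.24% were at least 2-fold higher and 1.69% lower. At these shares a list of this size holds few calls or none, which applies to all the lists below. Of 30 other inositol phosphate kinase and phosphatase genes, 28 were tested in BAT and limma called 1 higher and none lower (median log2 fold change -0.06, against 0.006 for all genes). That gene was Isyna1, which makes inositol phosphate from glucose phosphate, at 438 and 389 normalised counts in controls and 836 and 1174 in AKO (log2 fold change 1.26, limma adjusted p = 0.0351). None of 28 was called in siRNA by limma, edgeR or DESeq2 (1 with an unadjusted limma p below 0.05). In 4-OHT 1 of 28 was past 2-fold, Impa2, an inositol monophosphatase, with 15.9 and 45.9 TMM-scaled CPM (log2 ratio 1.53). Among 18 genes of phospholipase C and inositol trisphosphate receptors, limma called none of 16 in BAT (median 0.31) and none of 14 in siRNA (0.08), with 2 and 1 at an unadjusted p below 0.05. None of 14 was past 2-fold in 4-OHT (0.01). DESeq2 alone called 1, the receptor gene Itpr2, higher in BAT.

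Ceramide and sphingolipid genes, the setting of Fam57b, gave 1 call. Of 44 genes, 36 were tested in BAT, and limma called none higher and 1 lower, with a median of 0.05. Acer2, an alkaline ceramidase, fell from 3113 and 2131 normalised counts to 805 and 971 (log2 fold change -1.54, limma adjusted p = 0.0231). DESeq2 also called Smpd3, a sphingomyelinase gene, higher in BAT. None of 37 was called in siRNA by any of the 3 tools (median 0.03, 2 with an unadjusted limma p below 0.05), and none of 37 was past 2-fold in 4-OHT (0.04).

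The other drug-metabolism genes were mostly unread. Of 49 other genes of cytochrome P450 family 2, 7 had enough reads in BAT, 7 in siRNA and 6 in 4-OHT, and none was called by any tool in BAT or siRNA or past 2-fold in 4-OHT (2 in BAT and 0 in siRNA with an unadjusted limma p below 0.05). The list of CAR, PXR and their other known targets had 31 genes, of which 14, 15 and 13 were measured, again with none called by limma or edgeR in BAT or siRNA or past 2-fold in 4-OHT (medians 0.13 in BAT, -0.13 in siRNA and -0.15 in 4-OHT). Unadjusted limma p-values were below 0.05 for 4 of them in BAT and 0 in siRNA, and DESeq2 called Aldh1a7 and Thrsp higher in BAT.

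Serpins and coagulation genes went the other way from Serpina10 in 4-OHT where they passed 2-fold. Of 24 other clade A serpins, 6 were measured there and 2 were more than 2-fold lower, Serpina3g (log2 ratio -1.23) and Serpina3n (-1.02). Among 39 coagulation factors and inhibitors, 2 of 19 were lower, the transglutaminase subunit F13a1 (-1.26) and Kng1, the kininogen gene (-1.34), and none was higher. F13a1 is also known from macrophages, whose markers had a median log2 ratio of -0.60 in the same library (3449 and 1918 CPM in ETOH and 4-OHT); their part was not tested. In all, 1.69% of the genes measured in 4-OHT were at least 2-fold lower. In BAT limma called none of 4 serpins and none of 23 coagulation genes, and in siRNA none of 5 and none of 16. Unadjusted limma p-values were below 0.05 for 1 serpin in each experiment and for 3 and 2 coagulation genes, and edgeR and DESeq2 called only F2r, a thrombin receptor gene, higher in siRNA.

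The authors' deposited table for BAT gave Fam57b a log2 fold change of 2.15 with an adjusted p of 7.79e-11. In the authors' deposited table Cyp2b10 had 4.38 with an adjusted p of 7.76e-09. The authors' deposited table gave Itpka 1.39 with an adjusted p of 0.667, so the same 2 genes passed and Itpka did not.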

How the data were processed

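RNA-seq libraries were made with a NEBNext Ultra II kit and sequenced in pairs on a NovaSeq, per the labels. Tools listed without roles in the submitters' processing notes are STAR 2.7.10a, Trimmomatic 0.39, DESeq2 1.36.0 and featureCounts 2.0.3, on GRCm38; strand setting and multi-mapping were not stated. The authors deposited scaled counts per gene for BAT and siRNA (a signal, here called normalised counts), and raw counts and an FPKM (scaled for length and depth, not used here) for 4-OHT, with log2 fold changes and p-values. All recovered values were whole reads (100% within 0.05). The siRNA tables were joined through siNC, equal in all 19381 shared genes; genes absent from 1 table were set to 0 there.

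limma 3.58.1 was fitted to log2(normalised count + 1), which understates changes of low genes, over 14466 BAT genes (at least 10 in 2 libraries) and 15224 siRNA genes (at least 10 in 1), with Benjamini-Hochberg adjusted p below 0.05. The siRNA fit has 1 residual degree of freedom and assumes that siNC varies like siSetdb1. Replicates may be technical, so p-values measure the spread between these libraries. 4-OHT has 1 library per group: ratios of TMM CPM (edgeR 4.0.16) have no test, and intervals at 95% cover counting error only. Sequences are RefSeq's; transcripts and coordinates were compared with GENCODE M21 (97.5% of genes with equal start and end). Scripts were tested on simulated data.

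Members and gene lists were chosen with earlier results of these data known. Named by rule were the members, Setdb1, called list genes, nearest or overlapping genes, genes next in the 4-OHT order and the 3 most alike; others are stated as named after their values were seen. Alternatives were edgeR, DESeq2 1.42.0, other pseudocounts, filters and scalings, left-out libraries and a replicate block.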

Additional observations from a re-analysis of the deposited data

Results flagged for a closer look

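Of the 23 genes named by rule and tested in BAT and siRNA, 5 stood on one side of the controls in both AKO libraries and on the other side of siNC in both siSetdb1 libraries; the difference between the experiments was not tested. Of all 13413 genes tested in both, 2008 (15.0%) did so. Isyna1, the inositol phosphate synthase gene, had a log2 fold change of -0.16 in siRNA and 1.26 in BAT. Impa2, the inositol monophosphatase gene, had -0.045 in siRNA and 0.60 in BAT. The larger Aldoa gene that overlaps Fam57b had -0.093 in siRNA and 0.30 in BAT. Dcn and Pi16, fibroblast markers, had -0.48 and -1.23 in siRNA and 0.58 and 2.87 in BAT. Of the 5, Isyna1 and Pi16 passed the limma test in BAT (adjusted p = 0.0351 and 0.0327), and none passed it in siRNA.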

How the results depend on the processing

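Of 80 results under all alternatives run, 631 values stayed the same, 23 became weaker, 8 stronger, 16 moved and 15 reversed. For tested genes, staying the same means the same direction and side of the threshold. For 4-OHT ratios it means a value inside the counting interval, and for counts of calls a number near the main one. For siRNA values with a library left out it means a shift within the SD of the siSetdb1 libraries. The BAT count of 243 calls was 651 with DESeq2, 11 with no filter on low values, and 22 to 157 with a library left out. The siRNA count of 6 was 11 with DESeq2, 37 with edgeR, 67 with limma on TMM-scaled log2 CPM, 29 with a filter of at least 50 and 0 with no filter. The 4-OHT count of 409 genes past 2-fold was 1382 at 10 counts and 178 at 200 counts, where Serpina10 drops out. With no filter, Fam57b (2.12, limma adjusted p = 0.238) and Cyp2b10 (4.25, limma adjusted p = 0.215) were not called in BAT, where 22721 genes were then tested; beyond that number, and for the other changes given here, the cause was not tested. With a library left out, so that the lone library of a group is assumed to vary like the other group, Itpka ranged from -0.048 to 2.09, Fam57b from 1.69 to 2.54 and Cyp2b10 from 3.61 to 4.89, which without either AKO library no longer passed the filter. Genes not called that changed sign in BAT with a library left out were Serpina3g (-1.48 to 0.52), Serpina3n (-2.06 to 2.11), Kng1 (-0.22 to 4.12), Lep (-0.41 to 0.34), Tubb3 (-0.24 to 1.89), Rtf1 (-0.20 to 0.22) and Ppp4c (-0.044 to 0.29). Lep was also 0.0092 with DESeq2 and 0.014 with edgeR, against -0.03. Leaving out an siRNA library leaves 1 against 1, a value with no test.

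The replicate numbers share no stated source, and the correlation of control 1 with AKO 1 over genes was -0.0151, so no pairing was used. With a replicate block 299 genes were called in BAT, and the limma adjusted p was 0.271 for Itpka, 0.0163 for Fam57b and 0.0055 for Cyp2b10. Limits are 2 libraries per BAT group, 1 per 4-OHT group, and few reads for Serpina10 and for Cyp2b10 in its controls.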

Other observations

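Lep, the leptin gene and a marker of adipocytes, was the 1 of 10 brown adipocyte markers past 2-fold in 4-OHT, at 1.41 and 3.21 TMM-scaled CPM (log2 ratio 1.15). Pi16, Dcn and Lum, among the 8 markers of fibroblasts and preadipocytes, were higher in both AKO libraries and lower in both siSetdb1 libraries. None of them was called in siRNA, where Pi16 was low, at 6.11 to 16.8 normalised counts. Lum had 419 and 347 normalised counts in the BAT controls and 424 and 464 in AKO (limma adjusted p = 0.575). In siRNA it had 107 in siNC and 54.7 and 44.8 in siSetdb1 (log2 fold change -1.09, limma adjusted p = 0.813). The markers Pdgfra, Pdgfrb, Col1a1, Col3a1 and Lum were at -0.17 to 0.22 log2 in BAT, and Dpp4 was at 1.93 (limma adjusted p = 0.0886). Dcn was at 75.4 TMM-scaled CPM in ETOH and 33.1 in 4-OHT (log2 ratio -1.19), while in BAT it had 1490 and 1312 normalised counts in controls and 2015 and 2182 in AKO (limma adjusted p = 0.111). Pi16 rose in BAT from 63.3 and 36.5 normalised counts to 229 and 562 (limma adjusted p = 0.0327). Kng1 had 2.75 and 75.1 normalised counts in the BAT controls and 78.2 and 52.6 in AKO, so control 1 stood apart for that gene.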
